A study of Mus musculus with 8 samples.

Results

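The 8 genes Mcm2, Mcm3, Mcm4, Mcm5, Mcm6, Mcm7, Mcm8 and Mcm9 encode the minichromosome maintenance (MCM) family of DNA helicase subunits. They were taken as the non-control probes that the arrays name for one of these genes, which gave 11 probes for 8 of the 36324 genes named on the arrays. All 11 probes passed the filter on dim probes, so 8 of the 28829 genes tested are MCM genes. The proteins of Mcm2 to Mcm7 form the hexameric ring that is loaded onto replication origins as an inactive double ring before S phase and then becomes the motor of the replicative helicase. Loading needs the origin recognition complex, Cdc6 and Cdt1, and Geminin, the protein that the mutants were made to lose, binds Cdt1 and blocks it after origins have fired. Mcm8 and Mcm9 form a separate helicase that acts in homologous recombination and is not part of the replicative ring.

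The arrays measured total RNA from mouse embryos of strain C57BL/6 at stage E10.5, when the spinal neural tube holds dividing progenitors and the first neurons. Neural tube and paraxial tissue were cut out of each embryo by laser capture, from 2 wild-type embryos and 2 mutant embryos, so that each of the 4 groups of genotype and tissue holds 2 arrays. The mutants carry the genotype fl/fl; cre/o for a conditional loss of Geminin, the labels do not name the promoter that drives the cre, and the wild-type embryos are labelled only as wild type. Both tissues of an embryo share that embryo. Signals are given as scaled log2 signal, the log2 of the deposited intensity after the 75th percentile of each array was set to the same value, so a difference of 1 is a doubling of signal relative to that percentile.

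Across the 8 arrays, 71.8% to 78.1% of the spots were well above background, with 71.8% to 74.2% in the mutants and 73.7% to 78.1% in the wild type, and no spot was saturated. Neural progenitor markers lay higher in neural tube and myotome markers higher in paraxial tissue on every array, as the labels of the tissues have it. Gmnn, which encodes Geminin, read 12.35 and 12.24 in wild-type and 12.10 and 11.80 in mutant neural tube, and 12.20 and 11.88 in wild-type and 11.42 and 11.39 in mutant paraxial tissue. The mutant arrays were the lower ones in both tissues without overlap, by -0.35 ± 0.25 (SE) and -0.63 ± 0.25. Of all genes tested, 15.4% were lower without overlap in neural tube, 14.7% in paraxial tissue and 5.39% in both. Neither Gmnn difference passed the test (limma adjusted p = 0.922 and 0.996). Whether that Gmnn probe lies in the deleted part of the gene is not known here. RNA of captured tissue is a mixture, so fewer cells of a type and less RNA per cell cannot be told apart in any of the values that follow.

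Promoter sequences of RefSeq (mouse build GRCm38.p6, 250 bases before to 50 bases after a gene start, 300 in all) were matched by symbol for 7 of the 8 genes, in 8 windows because Mcm7 has 2 starts. Mcm4 had none. E2F factors switch on genes of DNA replication as cells enter S phase, and their site was searched on both strands as TTTCCCGC, TTTGGCGC, TTTCGCGC or TTTGCCGC, beside the CCAAT box (CCAAT) and the E-box (CACGTG). At least 1 E2F match stood in 5 of the 8 windows, those of Mcm3, Mcm5, Mcm6, the first start of Mcm7, and Mcm8, against 744 of all 32841 promoters (2.27%). A CCAAT match stood in 8 of 8 windows, against 12288 of all promoters (37.4%). The E-box was found in the window of Mcm8 alone, against 7.15% of all promoters. The windows of Mcm6, with 3 E2F matches, of Mcm5, with 2 that overlap each other, and of Mcm2, with 0, are printed as examples. Only exact matches inside the windows were searched, so near matches and sites elsewhere were not counted. Capitals mark the E2F and CCAAT matches, each read 5′ to 3′ on the strand of the gene.
Mcm6 promoter (chr1:128359656-128359955, minus strand): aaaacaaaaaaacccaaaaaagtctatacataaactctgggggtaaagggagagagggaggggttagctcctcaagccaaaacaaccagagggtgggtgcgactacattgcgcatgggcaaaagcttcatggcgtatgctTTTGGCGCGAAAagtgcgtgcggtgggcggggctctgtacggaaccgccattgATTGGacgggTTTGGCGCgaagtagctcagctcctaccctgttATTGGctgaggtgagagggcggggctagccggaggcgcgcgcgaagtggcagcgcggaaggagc
Mcm5 promoter (chr8:75109259-75109558, plus strand): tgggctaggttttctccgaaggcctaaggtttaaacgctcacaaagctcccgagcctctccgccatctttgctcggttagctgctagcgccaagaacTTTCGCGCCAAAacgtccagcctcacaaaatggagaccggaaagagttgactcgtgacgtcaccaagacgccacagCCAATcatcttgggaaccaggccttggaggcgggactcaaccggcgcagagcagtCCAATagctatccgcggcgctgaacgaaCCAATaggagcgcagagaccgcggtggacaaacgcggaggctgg
Mcm2 promoter (chr6:88898731-88899030, minus strand): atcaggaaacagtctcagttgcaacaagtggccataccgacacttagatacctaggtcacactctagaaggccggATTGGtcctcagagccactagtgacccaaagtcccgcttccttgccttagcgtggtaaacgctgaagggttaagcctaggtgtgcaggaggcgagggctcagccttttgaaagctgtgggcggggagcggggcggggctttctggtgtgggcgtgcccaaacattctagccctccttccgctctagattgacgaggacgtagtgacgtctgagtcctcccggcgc

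In Mcm6, 2 of the E2F matches overlap (-110 to -103 and -106 to -99 from the gene start) and the other lies at -47 to -40. In Mcm5 the overlapping pair lies at -153 to -146 and -149 to -142, farther upstream than the 3 CCAAT matches of that window. Stretches around the E2F matches of the other genes, capitals marking the match, show the pattern on either strand. In Mcm7 the second stretch starts its E2F match at base 17 after the start and shares its last base, 24, with a CCAAT match. These matches are letters in a window and say nothing of binding in these embryos.
Mcm3, bases 20 to 27: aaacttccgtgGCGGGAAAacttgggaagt
Mcm3, bases 39 to 46: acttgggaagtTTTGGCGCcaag
Mcm7, bases -165 to -158: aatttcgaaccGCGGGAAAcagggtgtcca
Mcm7, bases 17 to 24: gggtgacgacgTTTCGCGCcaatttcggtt
Mcm8, bases 40 to 47: gcgtcatagacGCGCCAAAaaa

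**Figure D1:**
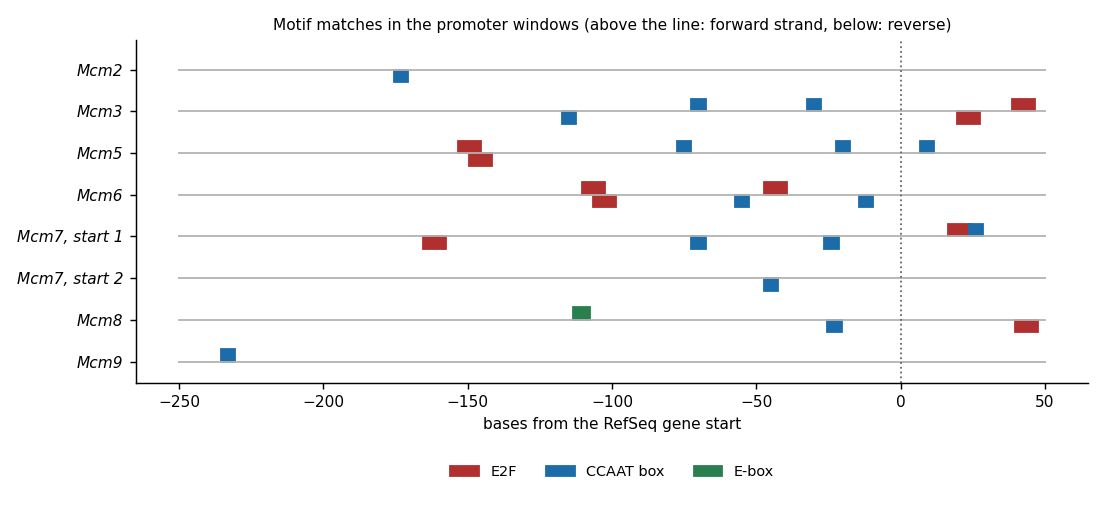
Positions of E2F, CCAAT and E-box matches in the 8 promoter windows of 7 MCM genes, in bases from the RefSeq gene start (dotted line), with forward matches above and reverse matches below each line. E2F matches stand in 5 of the 8 windows and CCAAT matches in all 8, and the windows of Mcm2, Mcm9 and the second start of Mcm7 hold no E2F match.

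The first question was whether the loss of Geminin went with another level of MCM transcripts. The 6 genes of the replicative ring had higher mean signals in the mutants than in the wild type in both tissues, by 0.27 to 0.57 in neural tube and 0.35 to 0.67 in paraxial tissue on the log2 scale, while Mcm8 differed by -0.08 and 0.03 by its brighter probe. None of these differences passed the test. In limma's model of 4 group means with the embryo as a random block and Benjamini-Hochberg adjustment over 28829 genes at 0.05, 0 of the 8 genes passed in neural tube, where 0% of all genes passed, and 0 of 8 in paraxial tissue, where 0% passed too. At an unadjusted p under 0.05 the counts over all genes were 1048 and 968, and among the MCM genes, by the brightest probe of each, 0 and 1. Each genotype rests on 2 embryos, and that small number limits how precisely a difference could be measured. The model counts 4 residual degrees of freedom over the 8 arrays, more than 4 embryos give for a comparison of genotypes. Its intervals between genotypes may therefore be too narrow and its unadjusted p too small, those of Mcm4 below included.

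Mcm4 had the largest difference of the ring genes. It was read by 1 probe (A_51_P356762, chr16:15624372-15624431, minus strand, mouse build mm9, as are all probe positions here). Its signal in neural tube was 14.20 and 14.35 on the wild-type arrays and 15.04 and 14.65 on the mutant arrays. In paraxial tissue it was 14.09 and 14.51 in the wild type and 15.14 and 14.80 in the mutants. Both mutant arrays lay above both wild-type arrays in each tissue. The group means were 14.27 ± 0.10 and 14.85 ± 0.27 (SD, n = 2) in neural tube and 14.30 ± 0.30 and 14.97 ± 0.25 in paraxial tissue. The difference was 0.57 ± 0.27 (SE; 95% interval -0.06 to 1.20) in neural tube and 0.67 ± 0.27 (0.04 to 1.30) in paraxial tissue, with limma adjusted p = 0.922 and 0.996. Averaged over both tissues it was 0.62 ± 0.24 (0.06 to 1.19; unadjusted p = 0.0356, limma adjusted p = 0.950).

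Mcm2, whose protein also binds histones H3 and H4 at the fork, was read at chr6:88833619-88833678 (probe A_51_P158210, minus strand). It gave 14.00 and 14.12 in wild-type and 15.00 and 14.15 in mutant neural tube. The paraxial arrays gave 13.85 and 14.01 in the wild type and 14.82 and 14.31 in the mutants. The groups did not overlap in either tissue, but mutant embryo 2 lay only just above the wild type in neural tube, and the mutant mean there, 14.58 ± 0.60 (SD, n = 2), rests on embryo 1. The fitted differences were 0.52 ± 0.31 (-0.22 to 1.26) and 0.63 ± 0.31 (-0.11 to 1.37).

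Mcm6 and Mcm7 are core subunits of the same ring. Mcm6 (A_51_P360492, chr1:130228178-130228237, minus strand) gave 15.01 and 15.01 in wild-type and 15.74 and 15.29 in mutant neural tube, without overlap. In paraxial tissue it gave 14.87 and 15.38 in the wild type and 15.77 and 15.34 in the mutants, where the second embryos of both genotypes stood within 0.04 of each other. Its differences were 0.50 ± 0.30 (-0.21 to 1.21) and 0.43 ± 0.30 (-0.29 to 1.14). Mcm7 (A_51_P165704, chr5:138605925-138605984, minus strand) gave 16.00 and 15.71 in wild-type and 16.52 and 16.16 in mutant neural tube. Its paraxial values were 15.84 and 16.03 in the wild type and 16.47 and 16.12 in the mutants, and neither tissue showed overlap. The differences of Mcm7 were 0.48 ± 0.28 (-0.17 to 1.14) and 0.35 ± 0.28 (-0.30 to 1.01).

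Mcm5, which sits at the gate through which the ring opens onto DNA, differed least among the ring genes in neural tube. Its probe (A_51_P190111, chr8:77651350-77651410, plus strand) gave 11.97 and 12.67 in wild-type and 12.85 and 12.33 in mutant neural tube, so the genotypes overlapped. In paraxial tissue the wild type gave 12.06 and 12.17 and the mutants 12.74 and 12.28, without overlap. The differences were 0.27 ± 0.34 (-0.53 to 1.06) and 0.40 ± 0.34 (-0.40 to 1.19). The first of them turned to -0.04 without wild-type neural tube array 1 and to -0.08 without both arrays of wild-type embryo 1.

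Mcm3 was read by 2 probes that share most of their bases, so they are no independent reading of the gene. The brighter probe (A_55_P1953087, chr1:20793136-20793195, minus strand) gave 13.49 and 13.63 in wild-type and 14.22 and 13.92 in mutant neural tube, and 13.36 and 13.85 in wild-type and 14.23 and 14.02 in mutant paraxial tissue. Mutants lay above the wild type without overlap in both tissues, by 0.51 ± 0.26 (-0.12 to 1.14) and 0.52 ± 0.26 (-0.11 to 1.15). The second probe (A_51_P324934, chr1:20793119-20793178) gave 12.90 and 13.09 in wild-type and 13.43 and 13.30 in mutant neural tube. In paraxial tissue it gave 12.82 and 13.18 against 13.59 and 13.31. The order of the groups was that of the first probe, with differences of 0.37 ± 0.25 and 0.45 ± 0.25 in a fit of each probe on its own. The 2 probes overlap over 43 bases, of which 42 are identical. The substitution A14G, counted from the 5′ end of the shared stretch with the brighter probe's base first, sets them apart, and the first 30 shared bases are printed with it in capitals.
A_55_P1953087: aagctttctttgcAattagactagtatgta
A_51_P324934: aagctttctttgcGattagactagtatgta

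**Figure D2:**
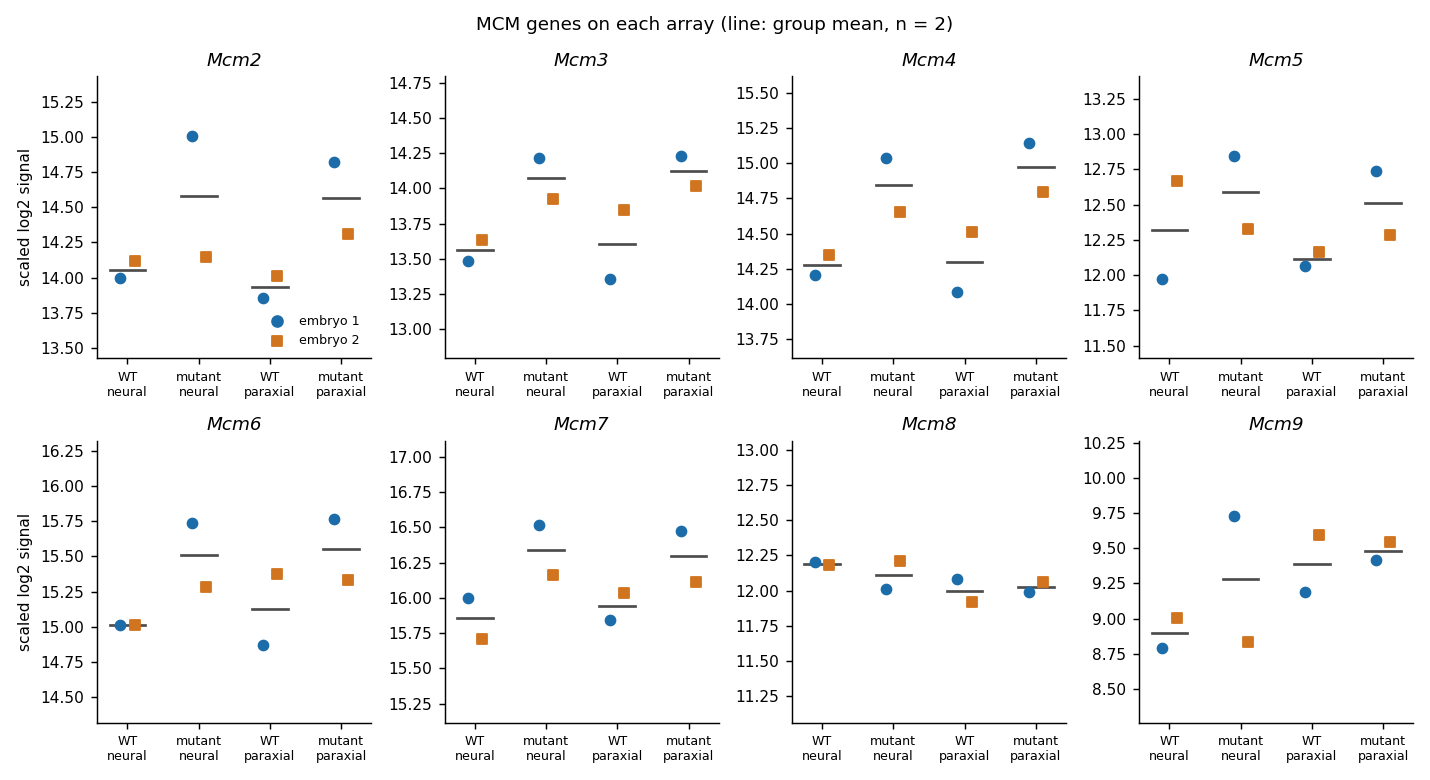
Scaled log2 signal of the brightest probe of the 8 MCM genes on each array (vertical axis, its range set per gene but of equal length) by genotype and tissue, with circles for embryo 1, squares for embryo 2 and a line at the group mean (n = 2). For Mcm2 to Mcm7 both arrays of mutant embryo 1 lie at the top, as with 15.00 and 14.82 for Mcm2, while Mcm8, by its brighter probe, lies between 11.92 and 12.21.

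Over the 8 genes, the groups did not overlap and the mutants were higher for 5 in neural tube, against 16.5% of all genes tested, and for 5 in paraxial tissue, against 22.6%. Mcm2, Mcm3, Mcm4 and Mcm7 did so in both tissues, 4 of 8 genes against 8.72% of all genes. By the brightest probe of each gene, the opposite order without overlap was seen for 0 of 8 genes in either tissue, against 15.4% and 14.7%. In both tissues it was seen for 0 of 8, against 5.39%. The dimmer Mcm9 probe, given below, did show that order in both tissues. The median difference of the 8 genes was 0.49 in neural tube and 0.41 in paraxial tissue, while that of all genes was -0.01 and 0.03. Both tissues come from the same 4 embryos, so they do not count as separate evidence. Nor do the ring genes, which varied together over the 8 arrays (median r of 0.88 among pairs of Mcm2 to Mcm7).

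The size of these differences rested on embryo 1 of the mutants. The mean of Mcm2 to Mcm7, relative to the mean of all 8 arrays, was -0.36 in wild-type embryo 1, -0.13 in wild-type embryo 2, 0.46 in mutant embryo 1 and 0.03 in mutant embryo 2, averaged over both tissues. Leaving out mutant embryo 1 took the median difference of the 8 genes from 0.49 to 0.18 in neural tube, from 0.41 to 0.19 in paraxial tissue and from 0.44 to 0.24 for the mean of both. Leaving out its neural tube array alone gave 0.30 in neural tube. In paraxial tissue the median was 0.26 without the first and 0.62 without the second wild-type paraxial array, and 0.27 without wild-type embryo 1. Arrays of one number lay in one row of the slide. Within number 1, all 6 ring genes were higher in the mutant, by 0.52 to 1.00 in neural tube and 0.63 to 1.06 in paraxial tissue. Within number 2, 5 of 6 were higher in each tissue, with differences from -0.34 (Mcm5) to 0.45 (Mcm7) in neural tube and from -0.04 (Mcm6) to 0.30 (Mcm2) in paraxial tissue.

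Markers of other cell types moved across the same arrays. The 9 neuron markers had a mean of 0.89 and 0.90 in wild-type and -0.24 and 0.90 in mutant neural tube, relative to the mean of the 8 arrays. In paraxial tissue that mean was 0.58 and -0.86 in the wild type and -1.22 and -0.94 in the mutants. The 6 surface ectoderm markers measured had -1.02 and -0.48 in wild-type and 0.27 and -0.15 in mutant neural tube, and -0.90 and -0.01 against 1.53 and 0.77 in paraxial tissue. All 9 neuron markers and all 6 measured surface ectoderm markers were well above background on all 8 arrays, so 0 of them were at background. Mutant embryo 1, with the highest MCM means, had the lowest neuron mean within each tissue and the highest surface ectoderm mean. In paraxial tissue the 6 erythroid markers measured had a mean of -0.20 and -0.10 in the wild type and 0.67 and 0.56 in the mutants. Of these markers 6 of 6 were higher in the mutants without overlap, against 22.6% of all genes tested. The 6 endothelial markers had 0.05 and 0.21 against 0.76 and 0.74. They were higher for 6 of 6, as were 53.5% of all genes, and without overlap for 5, as were 22.6%. In neural tube 3 of 6 erythroid and 1 of 6 endothelial markers were higher in the mutants, against 49.2% of all genes. In paraxial tissue 0 of 7 neural progenitor and 1 of 6 myotome markers were higher, and in neural tube 5 of 7 and 3 of 6. Sclerotome and mesenchyme markers were higher for 5 of 7 in each tissue, macrophage markers for 2 of 5 and neural crest markers for 2 of 4. None of these markers passed the test between genotypes. The part of cell composition in the MCM differences was not tested.

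Mcm8 had no such difference by its brighter probe (A_55_P1959258, chr2:132669680-132669739, plus strand). The signal was 12.20 and 12.18 in wild-type and 12.02 and 12.21 in mutant neural tube, and 12.08 and 11.92 against 11.99 and 12.06 in paraxial tissue. The genotypes overlapped in both tissues, with differences of -0.08 ± 0.22 (-0.61 to 0.45) and 0.03 ± 0.22 (-0.50 to 0.56). Whether Mcm8 differed from the ring genes was not tested. A second, dimmer probe that starts 129 bases away (A_55_P2107065, chr2:132669551-132669610) gave 9.31 and 9.57 in wild-type and 10.34 and 9.74 in mutant neural tube, without overlap. In paraxial tissue it gave 8.91 and 9.68 against 10.11 and 9.43, with overlap. Its differences were 0.60 ± 0.36 and 0.48 ± 0.36 (limma adjusted p = 0.918 and 0.994 over all probes). The 2 probes had r = -0.37 over the 8 arrays, so what is said of Mcm8 depends on the probe.

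The probes of Mcm9 disagreed as well. The brighter probe (A_55_P2151646, chr10:53257130-53257189, minus strand) gave 8.79 and 9.00 in wild-type and 9.73 and 8.84 in mutant neural tube, and 9.19 and 9.59 against 9.41 and 9.54 in paraxial tissue. The genotypes overlapped in both, with differences of 0.39 ± 0.41 (-0.57 to 1.35) and 0.09 ± 0.41 (-0.87 to 1.05). The other probe, 541 bases away (A_52_P82660, chr10:53256589-53256648), gave 8.23 and 9.33 in wild-type and 7.67 and 7.45 in mutant neural tube. In paraxial tissue it gave 8.12 and 8.22 in the wild type and 7.18 and 7.31 in the mutants. All 4 mutant arrays lay below all 4 wild-type arrays on this probe, the only one of the 11 with the mutants lower without overlap. Of all 42754 probes kept, 5.64% were lower without overlap in both tissues, so 1 of 11 is near the share among all probes. The difference was -1.22 ± 0.43 (-2.23 to -0.21; unadjusted p = 0.0247) in neural tube and -0.92 ± 0.43 (unadjusted p = 0.068) in paraxial tissue, and neither passed limma's test over all probes (adjusted p = 0.918 and 0.994). That probe was well above background on 7 of 8 arrays, with 1 of 2 in mutant paraxial tissue, while the other 10 MCM probes were so on all 8. The 2 probes of Mcm9 had r = -0.36 over the 8 arrays.

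**Figure D3:**
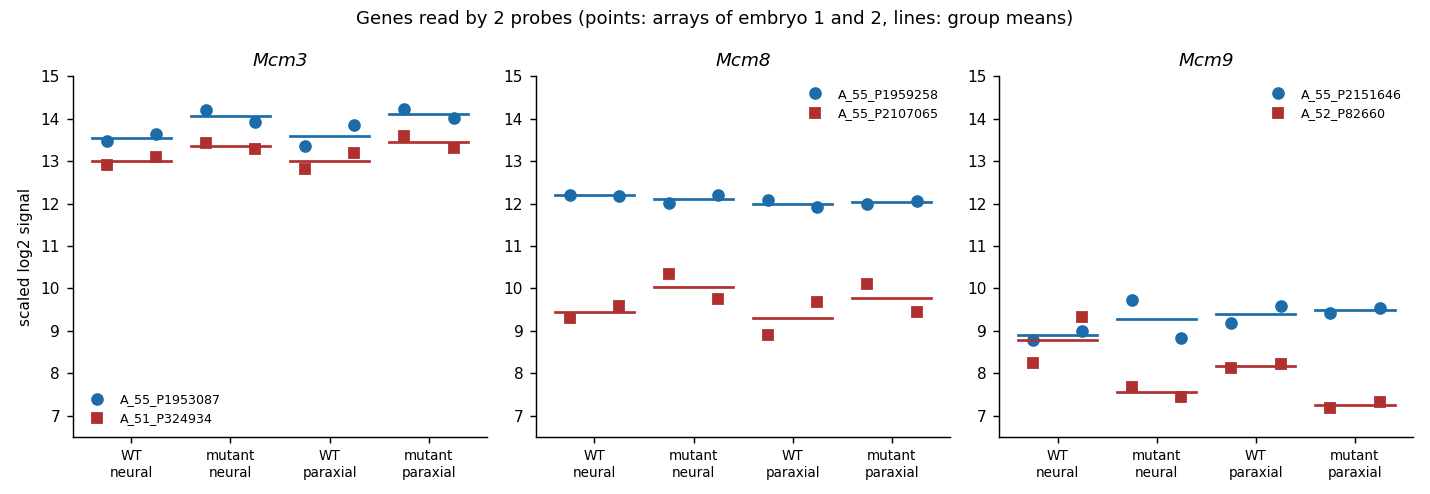
Scaled log2 signal of both probes of Mcm3, Mcm8 and Mcm9 on the 8 arrays (left point embryo 1, right point embryo 2, line the group mean, n = 2). The Mcm3 probes run together. The dimmer Mcm8 probe has higher group means in the mutants, with overlap of the arrays in paraxial tissue, and the brighter overlaps in both tissues. The second Mcm9 probe lies at 7.18 to 7.67 in the mutants and at 8.12 to 9.33 in the wild type.

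Whether the genotype difference itself differed between the tissues was tested as an interaction. The difference in neural tube minus that in paraxial tissue lay between -0.13 (Mcm5) and 0.30 (Mcm9) over the 8 genes, with a median of -0.05. The other Mcm9 probe gave -0.30. The number passing was 0 of 8, with a smallest limma adjusted p of 0.975, against 0% of all genes passing (1489 at an unadjusted p under 0.05). For Mcm4 the interval ran from -0.66 to 0.46, so a sizeable difference between tissues cannot be told from none.

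No MCM gene passed the test between the tissues. Within wild-type embryos neural tube minus paraxial tissue ranged from -0.49 (Mcm9) to 0.20 (Mcm5), and within mutants from -0.20 (Mcm9) to 0.08 (Mcm8), with medians of -0.03 and -0.01. The number of MCM genes passing was 0 of 8 in the wild type, where 2.49% of all genes passed, 0 of 8 in the mutants, where 5.87% passed, and 0 of 8 for the mean of both genotypes, where 12% passed. With arrays or embryos left out, those counts of all genes moved between 31 and 2707, 0 and 3205, and 808 and 6481, and that of the MCM genes stayed at 0. For that mean the interval of Mcm4 ran from -0.36 to 0.21, that of Mcm7 from -0.31 to 0.27 and that of Mcm3 from -0.33 to 0.23. Those of Mcm5 (-0.21 to 0.50) and of the brighter Mcm9 probe (-0.77 to 0.08) were wider. By its brighter probe Mcm8 was higher in wild-type neural tube without overlap (18.3% of all genes were), while its dimmer probe overlapped (0.15 ± 0.23). Mcm9 was lower in wild-type neural tube without overlap (16.9% of all genes were), with -0.49 ± 0.26 and limma adjusted p = 0.373. This direction held for the brighter Mcm9 probe only: the other probe was higher in neural tube without overlap in both genotypes, by 0.61 ± 0.27 in the wild type and 0.31 ± 0.27 in mutants, and by 0.46 ± 0.19 on average (0.01 to 0.92; limma adjusted p = 0.181 over all probes). By the brightest probe of each, in the mutants all 8 genes overlapped between tissues, where 16.5% of all genes were higher and 19.7% lower in neural tube without overlap.

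**Figure D4:**
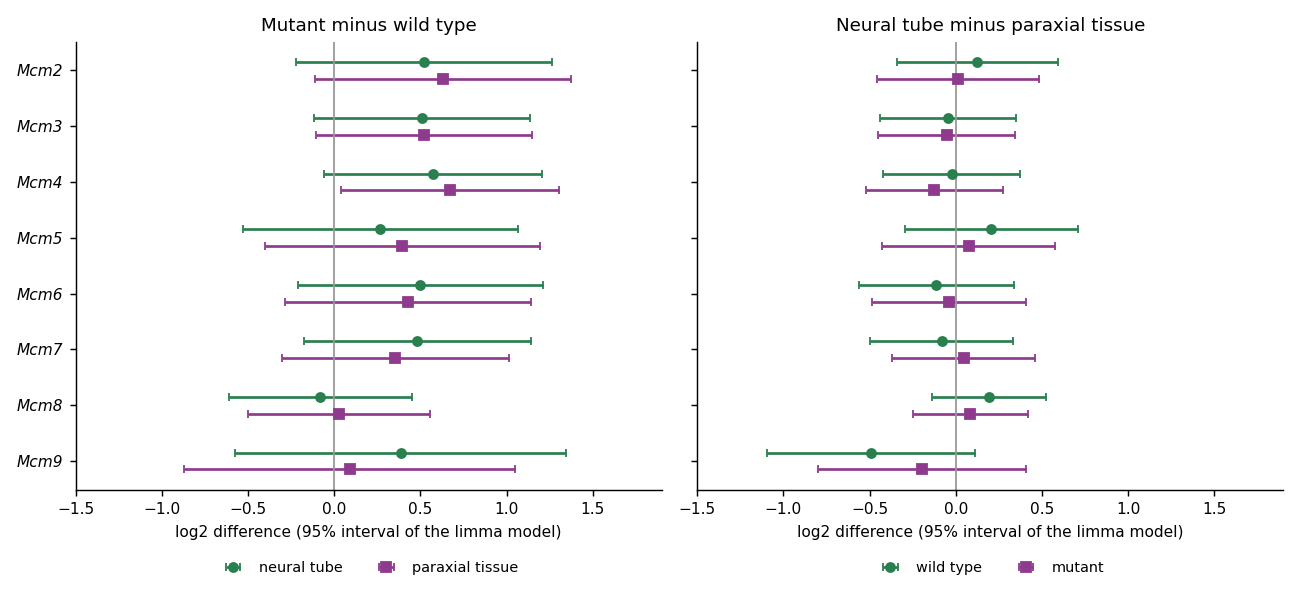
Log2 differences of the 8 MCM genes with 95% intervals from the limma model, between genotypes in each tissue (left, mutant minus wild type) and between tissues within each genotype (right, neural tube minus paraxial). On the left the ring genes lie at 0.27 to 0.67 with intervals that reach 0 except for Mcm4 in paraxial tissue, and on the right every interval holds 0.

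The ordering of the 4 groups was much the same for the ring genes. Both mutant groups had higher means than both wild-type groups for all 6 of them, and the 2 tissues of a genotype were neighbours that did not differ beyond their spread. Over the 8 arrays, which share 4 embryos, the 15 pairs among Mcm2 to Mcm7 had r from 0.54 to 0.99 with a median of 0.88. Mcm8 had r from -0.60 to -0.21 with them by its brighter probe and 0.81 to 0.91 by its dimmer one. Mcm9 had 0.41 to 0.67 by its brighter probe and -0.78 to -0.09 by the other. These are descriptions over arrays of the same embryos and carry no test.

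Other genes of origin licensing were read from lists around the MCM ring. The loading list holds 10 genes that load the ring or act around its loading (the origin recognition complex, Cdc6, Cdt1, Mcmbp and Gmnn, whose protein blocks Cdt1). Of these, 9 had a positive difference in each tissue and Gmnn was the exception, with medians of 0.44 and 0.34, and 0 passed. Orc1, the largest subunit of the origin recognition complex, had 1.04 ± 0.37 in neural tube and 0.96 ± 0.37 in paraxial tissue, and Orc2 had 0.87 ± 0.25 and 0.50 ± 0.25. Of 17 genes that activate the ring or travel with it, 14 were positive in each tissue (medians 0.30 and 0.18) and 0 passed. Gins2, a subunit of the GINS complex that joins the ring in the active helicase, had 0.90 ± 0.31 and 0.53 ± 0.31. Mcm10, an activator of the loaded ring and no MCM family member despite its name, had 0.74 ± 0.30 and 0.39 ± 0.30. Cdc45, the third component of the active helicase, had 0.70 ± 0.30 and 0.17 ± 0.30.

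Over all genes tested, 49.2% of the differences were positive in neural tube and 53.5% in paraxial tissue. Other lists hold genes that work on the unwound DNA or later in the cycle. Of 22 genes of fork synthesis, 20 were positive in neural tube and 19 in paraxial tissue (medians 0.24 and 0.16), with Fen1, the flap endonuclease of lagging strands, at 0.50 ± 0.25 and 0.45 ± 0.25. Of 16 G2/M genes, 15 and 14 were positive (medians 0.36 and 0.11). Among the 6 partners of Mcm8 and Mcm9 in recombination, 6 were positive in neural tube and 4 in paraxial tissue (medians 0.32 and 0.19), with Hrob, which loads the Mcm8 and Mcm9 helicase, at 0.33 ± 0.25 and 0.37 ± 0.25. The 14 E2F and G1/S regulators split 8 against 6 in both tissues (medians 0.02 and 0.03). In this list Cdkn1a, the p53 target that inhibits cyclin-dependent kinases, had 0.83 ± 0.36 and 0.69 ± 0.36. No gene of these lists passed in either genotype comparison. The list values rest on mutant embryo 1 as those of the ring genes do. Without it, the mean difference of fork synthesis went from 0.27 to 0.03 in neural tube and from 0.19 to 0.04 in paraxial tissue, and within number 2 it was -0.14 and -0.06. The loading list went from 0.44 to 0.24 and from 0.32 to 0.20, activation and fork from 0.35 to 0.10 and from 0.19 to 0.09, and G2/M from 0.31 to 0.12 and from 0.17 to 0.11. The recombination partners went from 0.31 to 0.10 and from 0.14 to 0.04, and were lower in the mutant within number 2 (-0.09 and -0.12). Between tissues, averaged over genotypes, 3 of the 14 regulators passed as higher in neural tube and 1 as lower, where 12% of all genes passed. Rb1 (0.71 ± 0.10), E2f1 (0.58 ± 0.13) and E2f2 (0.55 ± 0.10) were higher and Cdkn1a (-1.49 ± 0.16) lower (limma adjusted p from 0.00338 to 0.0354). No gene of the other 5 lists passed between tissues, against 2.49% of all genes in the wild type, 5.87% in mutants and 12% on average.

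**Figure D5:**
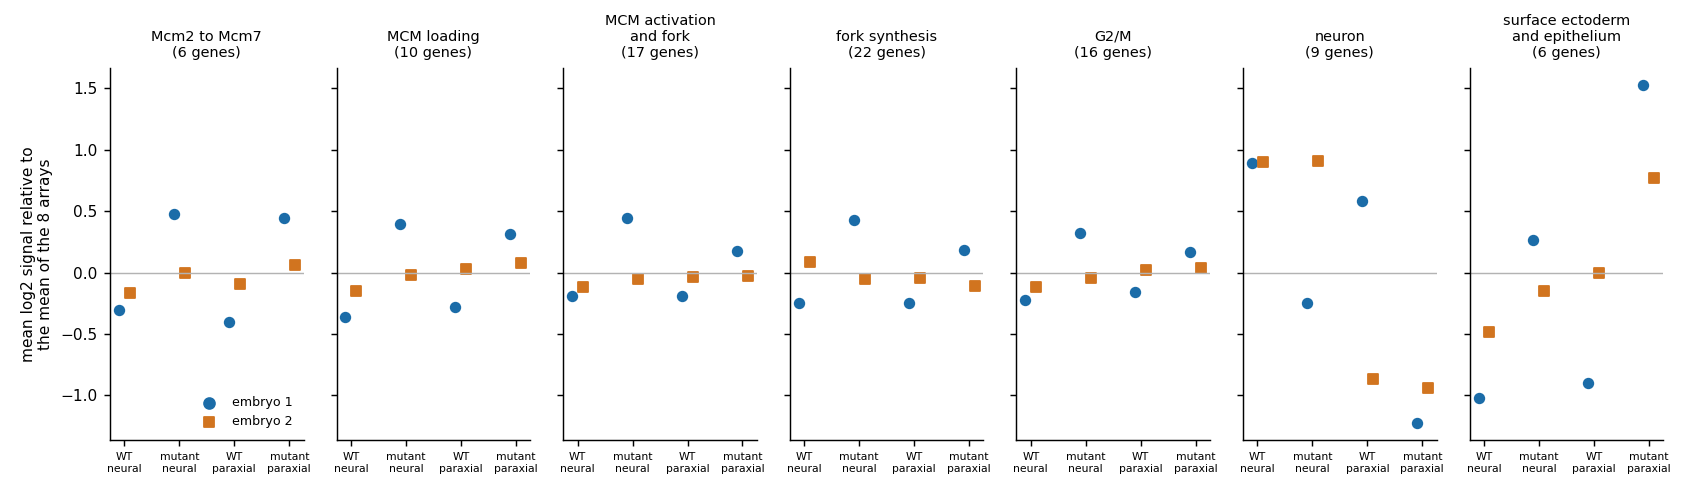
Mean log2 signal of 7 gene lists on each array relative to the mean of the 8 arrays, with circles for embryo 1 and squares for embryo 2. Mutant embryo 1 has the highest means of Mcm2 to Mcm7 (0.48 and 0.44) and of the other replication lists, and within each tissue the lowest neuron mean (-0.24 and -1.22).

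By profile over the 8 arrays, the 10 genes most like the mean of Mcm2 to Mcm7, among 25564 genes well above background on all arrays, had r from 0.986 to 0.993. They were Sub1, a transcription coactivator, Ap1b1, Dhrs13, Stag2, a cohesin subunit, Mrpl20, Cdc34, a ubiquitin-conjugating enzyme, Usp16, Rrp7a, Ssbp1 and a probe that the files name only by an interval of chromosome 5. All 10 were highest on the 2 arrays of mutant embryo 1, which follows from their choice by likeness to a profile highest on those arrays. None of the 10 belongs to the replication lists. In all, 892 genes (3.49%) had r over 0.9, and the median over all candidates was 0.07. The loading list had a median r of 0.76, fork synthesis 0.71, the partners of Mcm8 and Mcm9 0.71, G2/M 0.67, activation and fork 0.62, and the E2F and G1/S regulators 0.21. The highest in these lists were Rfc2 (0.981), Plk1 (0.971), Orc1 (0.946) and Mcm10 (0.919). By its brighter probe Mcm8 was most like Th (0.980), LOC100047746 (0.975), LOC635075 (0.971), AU022229 (0.964) and Pip4p1 (0.964). Mcm9, likewise, was most like Ramac (0.976), Cstf1 (0.958), Naa16 (0.952), LOC100044878 (0.950) and an unnamed probe (0.943).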

How the data were processed

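Total RNA of laser-captured tissue was isolated with the PicoPure kit and labelled with Cy5 by the Kreatech ULS kit, per the labels' protocols. The authors deposited linear intensity values (the processed red signal, 1 file per array), which per the submitters' processing notes came from Agilent Feature Extraction 11.0.1.1. Per the file headers the design was annotated on mm9 and all arrays shared a slide and a scan. The authors' value table holds the same intensities to within 0.497%.

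Control spots and outlier spots were left out and spots of a probe averaged (55664 probes). Log2 signals were scaled to the 75th percentile of each array. A probe was kept (42754 were) if 1 or more groups had it well above background on both arrays, and the brightest stood for each of 28829 genes. Gene names come from RefSeq tables by accession (26045 probes) or symbol (4130), otherwise from the files (25489). limma 3.58.1 (R 4.3.3; data.table in version 1.17.8 for input) fitted 4 group means over the 8 arrays, the embryo being a random block (estimated correlation 0.603, residual degrees of freedom 4, prior 2.93), then eBayes and Benjamini-Hochberg adjustment at 0.05 in 7 comparisons. The code was tested on simulated data. Both tissues of an embryo share an animal by the labels and deviated together (r = 0.562 and 0.607 across genes). The labels do not say whether a number pairs a wild-type with a mutant embryo, so they were not paired.

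By rule, all MCM genes and probes, Gmnn, up to 3 genes per list with the smallest unadjusted p, and the most alike profiles were named. Beside these, all regulators that passed between tissues were named. The members and lists were chosen with earlier results of these data known. Exons and untranslated regions of probes and protein sequences were not analysed here. Alternatives covered scaling, background correction, the value table, filters, probe choice, moderation, blocks and left-out arrays or embryos.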

Additional observations from a re-analysis of the deposited data

How the results depend on the processing

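No MCM gene passed in any of the 7 comparisons under any of the 25 or 26 alternatives run. The differences of Mcm2 to Mcm7 between genotypes were positive in 148 of 150 values in neural tube (-0.08 to 0.95; the others are Mcm5 without wild-type neural tube array 1 or wild-type embryo 1), in 150 of 150 in paraxial tissue (0.09 to 0.89) and in 150 of 150 for their mean (0.09 to 0.92). These values are refits of the same 4 embryos for genes that vary together. Several settings, such as those of moderation and block, cannot change a difference between group means. The counts of positive values are therefore no separate evidence for the direction. With arrays or embryos left out in turn, the median of the 8 genes ranged from 0.18 to 0.69 in neural tube, 0.19 to 0.62 in paraxial tissue and 0.24 to 0.62 for the mean, lowest without mutant embryo 1 each time. Mcm8 changed sign under 3 of 25 settings in neural tube and 4 in paraxial tissue, and Mcm9 under 3 and 4, down to -0.42 for the mean of its probes. The median of the 8 genes ranged from -0.14 to 0.13 for the interaction, and for the tissue difference from -0.20 to 0.13 in the wild type, -0.15 to 0.10 in mutants and -0.14 to 0.05 on average. Under the other settings it was 0.33 to 0.58, 0.28 to 0.50 and 0.30 to 0.53 in the genotype comparisons. Cyclic loess and quantile scaling gave 0.33 and 0.36 in neural tube, against 0.49, and 0.28 and 0.29 in paraxial tissue, against 0.41. Median scaling gave 0.58 and 0.50 in these tissues. Over all settings, left-out arrays and embryos included, the median of all genes moved between -0.06 and 0.08 in neural tube. In paraxial tissue it moved between -0.01 and 0.13. With the replicate block of number, which the labels do not tie to a shared litter or day, the count of all genes between tissues was 427 in the wild type and 1024 in mutants, against 717 and 1693, and the block changed no MCM call. Deviations from the group means of wild-type and mutant samples of one number correlated across genes by 0.289 in neural tube and 0.291 in paraxial tissue.

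The counts of all genes between tissues moved more. In the wild type 717 became 1485 with normexp, 366 with no filter, 1095 with trend and robust moderation, 4 with the embryo left out of the model (no replicate block) and 51 when the embryo was a fixed term. In mutants 1693 became 620 with no filter, 0 with the embryo left out and 218 with the embryo fixed. On average 3459 became 2301, 599 and 1982 under those 3 settings. Cyclic loess gave 4 genes for the interaction in place of 0. Leaving out arrays or embryos gave 0 to 17 genes for mutant against wild-type paraxial tissue, 0 to 33 for the interaction, 31 to 2707 between wild-type tissues, 0 to 3205 between mutant tissues and 808 to 6481 on average. The causes were not tested. The values of the gene lists without mutant embryo 1 were added after seeing the data. Where an embryo was left out the correlation of all arrays was kept, and a lone array was assumed to vary like the other groups.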
